A study of Mus musculus with 32 samples.

Results

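Kidney cortex of vehicle-treated female Alport mice was compared with that of vehicle-treated female control mice. The comparison held 8 of the 32 mice of the series, 4 per genotype, which were taken by their labels for sex, genotype and treatment, and it was described across all genes. All mice carried the *Col4a3*tm1Dec allele on the C57BL/6J background and were 25 weeks old. Alport mice were *Col4a3*-/- and control mice were *Col4a3*+/-, so that the controls were heterozygous carriers of the same allele rather than wild-type mice. Vehicle was a purified diet without nicotinamide riboside (NR). The deletion is constitutive, and each library came from the cortex of a single mouse. Vehicle-treated male mice of both genotypes (4 each) were used for comparison, and NR-treated mice were used only where stated. The labels give no litter, extraction date or sequencing run for a mouse, and litters were balanced over the treatment groups.

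Type IV collagen forms the scaffold of basement membranes, and the chain encoded by *Col4a3* is part of the network that the mature glomerular filter and some tubules depend on. Loss of this network leads to proteinuria, tubular injury, inflammation, fibrosis and kidney failure in Alport syndrome. The proximal tubule makes up most of the cortex, reabsorbs filtered solutes and proteins, and derives its energy mainly from mitochondrial oxidation of fatty acids under the control of regulators such as PPARα and PGC-1α. Injured tubule cells lose these functions, can divide, and secrete chemokines, complement and matrix proteins.

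Levels are given as CPM, the counts of a gene scaled to the library's total and its TMM factor, and ± on a CPM value is the SD of 4 mice. Fold changes are log2 of Alport over control with their standard error, and p-values are from the quasi-likelihood F test of edgeR with Benjamini-Hochberg adjustment over all genes tested. A gene was called at an adjusted p under 0.05. CPM is not corrected for gene length, so levels are compared between mice and not between genes. Because RNA was taken from whole cortex, a lower level of a cell type's genes cannot be told apart as fewer such cells or less RNA per cell. A higher level likewise cannot be told apart as more such cells, more RNA per cell or less RNA from other cells.

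Libraries held 22371273–27778797 counts in control mice and 19281368–24978942 in Alport mice. Other properties of the libraries moved with genotype. Alport libraries had more genes with a count (19425–19936 against 18921–19205), higher TMM factors (1.02–1.15 against 0.896–0.926) and smaller shares of counts in the 10 most abundant genes (12.03–13.7% against 15.6–17.0%) and in mitochondrial genes (9.41–11.3% against 13.3–14.3%). Their part in the results was not tested. The first principal component of the 8 mice held 71.6% of the variance and placed the control mice between −59.0 and −31.6 and the Alport mice between 25.4 and 62.4, with Alport replicate 2 nearest to the controls.

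*Col4a3*, the gene that carries the deletion (chromosome 1, 82586921–82722059, mm10), was measured at 161, 140.4, 139.7 and 163 CPM in the control mice and 57.6, 79.3, 59.8 and 60.2 CPM in the Alport mice. Every Alport mouse lay below every control mouse, and the level was 2.29-fold lower (log2 fold change −1.19 ± 0.11, adjusted p = 3.6e-05) but not 0. The counts are per gene, so they do not show which part of the transcript the remaining reads came from. *Col4a4*, whose chain assembles with that of *Col4a3*, was slightly lower (log2 fold change −0.24 ± 0.07, adjusted p = 0.019), a call that was lost without Alport replicate 3 (log2 fold change −0.21, adjusted p = 0.061) and when all 32 mice were fitted together (−0.28, adjusted p = 0.10). With library totals alone its direction turned (0.022, adjusted p = 0.80). *Col4a5*, the X-linked partner, was slightly higher (log2 fold change 0.25 ± 0.06, adjusted p = 0.0063), and was not called in joint fits of the 16 vehicle-treated (adjusted p = 0.069) or all 32 mice (adjusted p = 0.28). The genes of the ubiquitous type IV collagen chains rose more: *Col4a1* was measured at 142, 112, 142 and 125 CPM in the control mice and 562, 353, 543 and 414 CPM in the Alport mice, with no overlap (log2 fold change 1.88 ± 0.15, adjusted p = 2.2e-05), and *Col4a2* behaved alike (log2 fold change 1.69 ± 0.14, adjusted p = 2.4e-05).

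Of 15709 genes tested, 7199 were called (45.8%), 3768 of them higher in Alport mice (24% of those tested) and 3431 lower (21.8%). A change of at least 2-fold was found for 2043 genes (13%), of which 1762 rose and 281 fell. The smaller number depended on single mice and on scaling, since 464 genes fell at least 2-fold without Alport replicate 2 and 187 without Alport replicate 1. With library totals alone in place of TMM, 2377 genes rose and 103 fell at least 2-fold. The 4 Alport and 4 control values did not overlap for 6962 genes (44.3%). The split of all calls depended on scaling too: with library totals alone, 7078 genes rose and 1347 fell (84.0% higher, against 52.3% with TMM), and the median log2 fold change of all genes was 0.26 in place of −0.0008. Changes below are relative to the median gene of the TMM scale. Counts of list members below stand beside the 24% of all tested genes that rose and the 21.8% that fell.

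**Figure D1:**
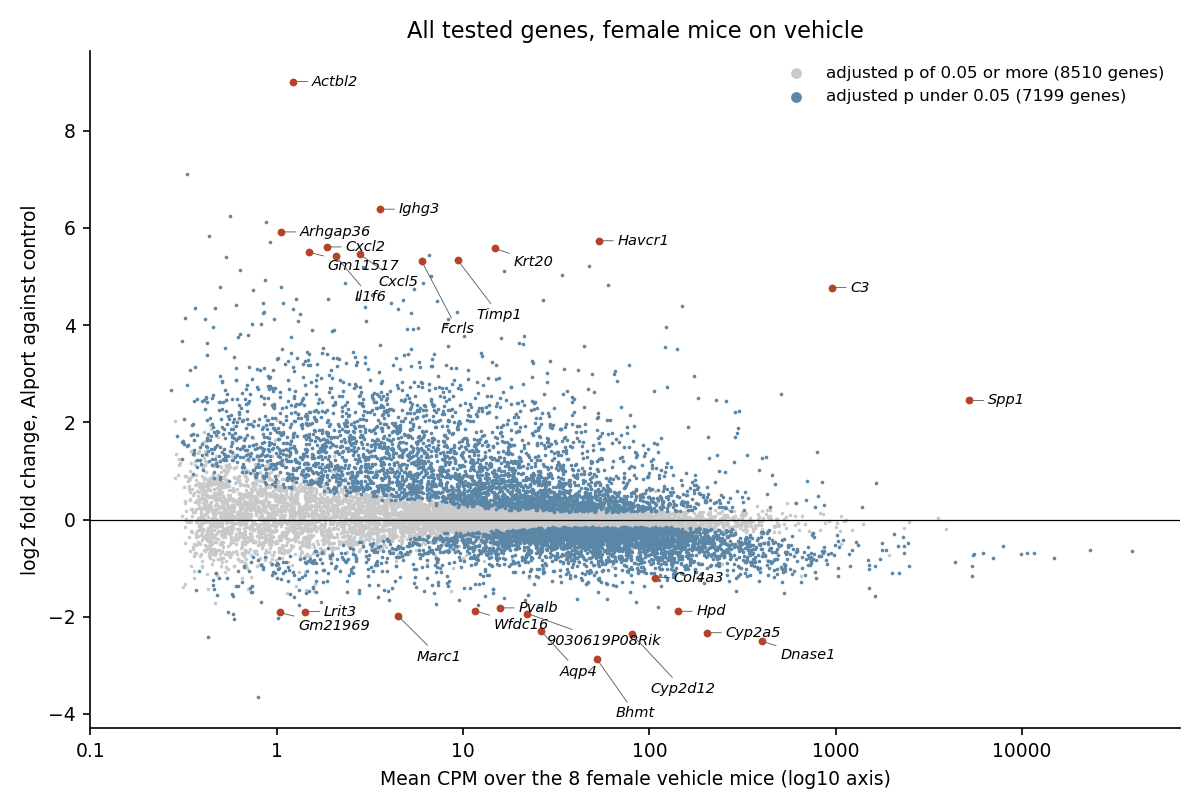
Each point is 1 of the 15709 genes tested in female vehicle-treated mice, with the mean CPM of the 8 mice on a log x axis and the log2 fold change of Alport over control on the y axis. The 7199 genes called are blue, the others grey and selected named genes red with their symbol, and the labelled rises such as *Havcr1* and *Krt20* reach further from 0 than the labelled falls such as *Bhmt*.

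The largest fold changes were rises of genes that were near 0 in control cortex. *Havcr1*, which encodes the tubular injury marker KIM-1, was measured at 1.89, 0.941, 4.20 and 0.956 CPM in the control mice and 165, 77.7, 125 and 53.3 CPM in the Alport mice (log2 fold change 5.74 ± 0.49, adjusted p = 2.6e-05). *Krt20*, a keratin of injured tubule cells, was measured at 0.602, 0.376, 0.903 and 0.592 CPM in the control mice and 42.9, 22.2, 25.9 and 25.0 CPM in the Alport mice (log2 fold change 5.58 ± 0.29, adjusted p = 6.3e-06). For both genes the lowest Alport mouse was well above the highest control mouse, and Alport replicate 1 was the highest. The 12 genes with the largest rise among those with a mean of at least 1 CPM and no overlap also included the neutrophil chemokine genes *Cxcl2* (log2 fold change 5.61 ± 0.36) and *Cxcl5* (5.46 ± 0.71), the interleukin-36 gene *Il1f6* (5.42 ± 0.60), the protease inhibitor *Timp1* (5.33 ± 0.37), the Fc receptor-like gene *Fcrls* (5.32 ± 0.47), the immunoglobulin constant region *Ighg3* (6.39 ± 1.19) and 3 genes with hardly any reads in control mice, *Arhgap36*, *Actbl2* and *Gm11517*. *Ighg3* varied widely, from 0.415 to 18.2 CPM in the Alport mice, and ranged from 0 to 0.196 CPM in the control mice. *Arhgap36* had 239 reads in Alport and 3 in control mice, a ratio of 70.6 (95% counting interval 23.9–345). The other two are described after the comparison of the sexes.

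All 24 genes of the tubule injury list were tested and all were higher in Alport mice, 20 of them at least 2-fold, with a median log2 fold change of 2.38. The summed level of the list was 2446–3004 CPM in the control mice and 9337–15018 CPM in the Alport mice. *Spp1*, which encodes the secreted phosphoprotein osteopontin, had the largest rise in mean CPM and was measured at 1938, 1393, 1708 and 1542 CPM in the control mice and 11019, 7002, 9648 and 7374 CPM in the Alport mice (log2 fold change 2.45 ± 0.18, adjusted p = 1.5e-05). Every Alport mouse lay above every control mouse. Other genes among the 10 with the largest rise in mean CPM were *Apoe*, the apolipoprotein of lipid transport (0.76 ± 0.17 on the log2 scale), the chaperone clusterin, *Clu* (1.39 ± 0.18), the proteoglycan biglycan, *Bgn* (2.22 ± 0.21), *Chd9* (0.78 ± 0.17) and *Tmem176b* (0.80 ± 0.10). *Lcn2*, the gene of neutrophil gelatinase-associated lipocalin, rose from 2.52 ± 2.0002 to 91.9 ± 30.2 CPM (log2 fold change 5.21 ± 0.44, adjusted p = 2.5e-05). *Vcam1*, an adhesion molecule of maladaptive tubule cells and activated endothelium, rose from 13.9 ± 6.44 to 286 ± 74.2 CPM (log2 fold change 4.39 ± 0.32, adjusted p = 1.4e-05), and the tubular repair factor *Sox9* rose from 1.93 ± 0.549 to 12.2 ± 3.70 CPM (log2 fold change 2.71 ± 0.26, adjusted p = 4.1e-05). *Cd44*, *Krt19* and *Il34*, a ligand of the macrophage receptor encoded by *Csf1r*, had log2 fold changes of 3.64 ± 0.28, 3.41 ± 0.33 and 2.93 ± 0.16. The fibrinogen chains *Fga*, *Fgb* and *Fgg*, which injured tubule cells can express, rose by 2.31 ± 0.12, 2.55 ± 0.13 and 2.997 ± 0.14 on the log2 scale. The smallest change of the list was that of *Krt7* (0.32, adjusted p = 0.037).

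Of 30 cell cycle genes, 28 rose and 22 did so at least 2-fold, and the list median was 1.45. The mitotic kinase *Cdk1* was measured at 1.29, 1.02, 1.49 and 1.32 CPM in the control mice and 7.50, 5.21, 7.52 and 5.84 CPM in the Alport mice (log2 fold change 2.39 ± 0.19, adjusted p = 2.2e-05), and the proliferation marker *Mki67* rose from 5.97 ± 2.25 to 30.2 ± 7.51 CPM. Replication licensing genes rose less, by 1.40 ± 0.13 for *Mcm3* and 1.54 ± 0.17 for *Mcm5*. *Ccnd1* and *Tyms* did not pass the test, with log2 fold changes of −0.37 ± 0.19 (adjusted p = 0.14) and −0.25 (adjusted p = 0.12).

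Of the 27 interstitial matrix genes, 26 rose and 25 did so at least 2-fold, with a median of 2.20 and a summed level of 524–780.4 CPM in the control mice and 2352–3819 CPM in the Alport mice. *Col1a1*, a chain of the main fibrillar collagen, was measured at 13.2, 9.07, 22.5 and 16.1 CPM in the control mice and 293, 155, 299 and 181 CPM in the Alport mice (log2 fold change 3.97 ± 0.31, adjusted p = 1.9e-05). *Col3a1* rose from 23.2 ± 12.02 to 257 ± 70.1 CPM and fibronectin, *Fn1*, rose from 29.9 ± 7.50 to 182 ± 49.2 CPM. *Col15a1* rose by 3.06 ± 0.19 and the collagen-binding protein *Sparc* by 2.22 ± 0.13 on the log2 scale. Groups were apart for all of these genes, and Alport replicate 2 was the lowest Alport mouse for each of them. *Col5a2* did not pass the test (log2 fold change −0.25 ± 0.14, adjusted p = 0.18), but was called lower without control replicate 2 (−0.36, adjusted p = 0.042).

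Basement membrane genes changed less, with 18 of 24 higher, 7 of them at least 2-fold, 3 lower (*Col4a3*, *Col4a4* and *Lama3*) and a median of 0.66. *Col18a1*, the source of endostatin, rose from 193 ± 13.3 to 474 ± 90.8 CPM (log2 fold change 1.34 ± 0.13, adjusted p = 4.5e-05), and the laminin chain *Lamc1* rose by 0.60 ± 0.08 on the log2 scale. The embryonic glomerular laminin chain *Lama1* was not called (log2 fold change 0.43 ± 0.17, adjusted p = 0.06), but was called without control replicate 3 (log2 fold change 0.60, adjusted p = 0.0093).

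Of 26 listed matrix proteases, inhibitors and crosslinking enzymes, 24 were tested, 20 rose, 18 of them at least 2-fold, and 1, the inhibitor gene *Timp3*, fell (−0.46). *Timp1*, an inhibitor of metalloproteinases, was measured at 0.258, 0.263, 0.982 and 0.319 CPM in the control mice and 24.5, 12.2, 18.3 and 18.4 CPM in the Alport mice (log2 fold change 5.33 ± 0.37, adjusted p = 1.3e-05). The gelatinase *Mmp2* rose from 3.26 ± 0.985 to 38.7 ± 10.1 CPM and the matrilysin gene *Mmp7* from 0.272 ± 0.319 to 5.69 ± 2.79 CPM. The crosslinking enzyme gene *Lox* rose by 2.89 ± 0.31 on the log2 scale. The list median was 2.17, while its summed level changed little (2203–2585 CPM in the control mice and 2421–2831 CPM in the Alport mice).

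Among 23 TGF-β signalling genes, 14 rose, 3 fell (*Bmp7*, *Bmp4* and *Smad6*) and the median was 0.50. The ligands *Tgfb1*, *Tgfb2* and *Tgfb3* all rose (1.90 ± 0.11, 1.58 ± 0.18 and 1.79 ± 0.15 on the log2 scale), as did the receptor *Tgfbr2* (1.01 ± 0.10). *Tgfb1* was measured at 11.0, 10.01, 12.6 and 10.7 CPM in the control mice and 44.2, 33.3, 43.7 and 39.9 CPM in the Alport mice. *Ltbp2*, a matrix protein related to the latent TGF-β binding proteins, rose from 2.08 ± 1.41 to 66.1 ± 23.2 CPM (log2 fold change 5.02 ± 0.41, adjusted p = 2.2e-05), whereas *Bmp7*, which opposes TGF-β in the tubule, fell from 57.0 ± 6.60 to 36.2 ± 4.30 CPM (log2 fold change −0.62 ± 0.11, adjusted p = 0.00096). *Ctgf*, a classical target, was not called (log2 fold change 0.58 ± 0.24, adjusted p = 0.075), but was called without control replicate 3 (0.84, adjusted p = 0.0081).

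Fibroblast and myofibroblast markers rose in 11 of 17 tested of 18 listed, with a median of 1.10. *Pdgfrb* and *Pdgfra*, growth factor receptors of pericytes and fibroblasts, rose from 32.3 ± 6.21 to 75.0 ± 18.1 CPM and from 22.1 ± 6.47 to 51.3 ± 9.40 CPM. The smooth muscle actin gene *Acta2*, the usual marker of myofibroblasts, rose only from 44.9 ± 2.62 to 62.7 ± 0.926 CPM (log2 fold change 0.52 ± 0.06, adjusted p = 0.00013), and *Fap* was not called (log2 fold change 0.33 ± 0.35, adjusted p = 0.47).

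Complement genes rose in 16 of 22 tested of 25 listed, all 16 at least 2-fold, with a median of 2.15. *C3*, the central component of all complement pathways, was measured at 57.6, 68.9, 93.8 and 54.5 CPM in the control mice and 2239, 1079, 2273 and 1746 CPM in the Alport mice (log2 fold change 4.77 ± 0.28, adjusted p = 7.1e-06), a 27.3-fold difference. The early components *C1qa*, *C1qb* and *C4b* rose by 2.62 ± 0.23, 2.69 ± 0.21 and 3.01 ± 0.25 on the log2 scale, and *C6* of the terminal pathway rose from 0.261 ± 0.0733 to 3.79 ± 1.80 CPM. *C8a* was the only complement gene that fell, from 33.6 ± 9.16 to 11.1 ± 9.57 CPM (log2 fold change −1.56 ± 0.44, adjusted p = 0.014). Of its Alport values, 6.54, 25.4, 6.90 and 5.45 CPM, that of replicate 2 was close to the lowest control value of 26.0 CPM.

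All 21 tested genes of antigen presentation (of 22 listed) rose, 20 of them at least 2-fold, with a median of 1.82. *H2-Ab1*, a chain of MHC class II, was measured at 53.8, 70.9, 117 and 86.5 CPM in the control mice and 507, 315, 469 and 447 CPM in the Alport mice (log2 fold change 2.44 ± 0.23, adjusted p = 4.1e-05). *Cd74*, the invariant chain, rose from 149.7 ± 59.4 to 874 ± 199.6 CPM, and *Ciita*, the transactivator of class II genes, rose from 4.95 ± 1.19 to 22.5 ± 4.78 CPM. The class I gene *H2-D1* rose by 1.26 ± 0.11 on the log2 scale. MHC genes are near-identical in part, so the counts of single members are uncertain.

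Macrophage and dendritic cell markers rose in 24 of 25, 21 of them at least 2-fold, with a median of 2.59 and a summed level of 981–1642 CPM in the control mice and 2461–3194 CPM in the Alport mice. The lysozyme gene *Lyz2* was measured at 10.7, 9.75, 38.6 and 18.9 CPM in the control mice and 283, 129, 215 and 262 CPM in the Alport mice (log2 fold change 3.54 ± 0.43, adjusted p = 0.00016). The macrophage markers *Adgre1*, *Itgam* and *Mrc1* rose by 2.73 ± 0.29, 2.83 ± 0.26 and 2.89 ± 0.26 on the log2 scale, and *Csf1r* rose less (0.90 ± 0.11). *Cd163* was the only member not called (log2 fold change 0.72 ± 0.28, adjusted p = 0.057), and it was called without Alport replicate 2 (0.82, adjusted p = 0.037).

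T and NK cell markers rose in 14 of 17 tested of 22 listed, from low levels (summed 9.84–20.1 CPM in the control mice and 28.2–51.1 CPM in the Alport mice), with a median of 1.87. *Cd4* was measured at 1.46, 1.02, 1.96 and 1.41 CPM in the control mice and 5.38, 3.40, 5.46 and 6.67 CPM in the Alport mice (log2 fold change 1.87 ± 0.26, adjusted p = 0.00028), *Cd8a* rose by 1.22 ± 0.19, and the interleukin-7 receptor gene *Il7r* by 3.19 ± 0.33 on the log2 scale. *Ctla4*, an inhibitory receptor, had 80 reads in Alport and 3 in control mice, a ratio of 23.6 (7.80–117). The genes of cytotoxic granules *Gzma*, *Gzmb* and *Prf1* and the NK receptor gene *Ncr1* did not reach the count filter. *Foxp3*, the regulatory T cell factor, was not called (log2 fold change 1.14 ± 0.45, adjusted p = 0.059), and was called without Alport replicate 2 (1.38, adjusted p = 0.018).

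B and plasma cell markers rose in 5 of 9 tested of 12 listed, with a median of 1.34. *Jchain*, which joins secreted IgA and IgM, was measured at 2.79, 2.67, 8.48 and 4.24 CPM in the control mice and 29.8, 17.7, 65.7 and 56.9 CPM in the Alport mice (log2 fold change 3.25 ± 0.47, adjusted p = 0.00036). Immunoglobulin constant regions, a group added after values had been seen, rose in 9 of 10 tested of 13, and the spread between mice was wide. *Igha* was measured at 9.97, 9.41, 25.4 and 18.9 CPM in the control mice and 145, 62.5, 240.2 and 113 CPM in the Alport mice, whereas *Ighm*, at 3.09, 3.88, 22.5 and 6.19 CPM in the control mice and 17.4, 14.7, 84.1 and 181 CPM in the Alport mice, overlapped between the groups (adjusted p = 0.015). Of 12 neutrophil and mast cell markers only 3 were tested and *Csf3r* rose (2.80 ± 0.31 on the log2 scale), while the defining neutrophil genes *S100a8*, *S100a9* and *Ly6g* were below the filter.

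Chemokines, cytokines and their receptors rose in 36 of 41 tested of 47 listed, 35 of them at least 2-fold, with a median of 2.03. *Cxcl1*, which attracts neutrophils, was measured at 0.344, 0.113, 0.825 and 0.319 CPM in the control mice and 14.9, 6.49, 12.5 and 8.41 CPM in the Alport mice (log2 fold change 4.74 ± 0.43, adjusted p = 3.4e-05). The monocyte chemokine *Ccl2* rose from 0.882 ± 0.812 to 9.29 ± 3.002 CPM and the lymphocyte chemokines *Ccl5* and *Cxcl10* rose by 2.58 ± 0.21 and 2.76 ± 0.25 on the log2 scale. *Tnf* rose from 0.211 ± 0.0841 to 1.62 ± 0.608 CPM. The homeostatic chemokine *Cxcl12* was not called (−0.29 ± 0.18, adjusted p = 0.22).

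All 30 genes of NF-κB and innate sensing rose, 22 at least 2-fold, with a median of 1.595. The adhesion molecule *Icam1* was measured at 18.4, 18.9, 22.7 and 21.8 CPM in the control mice and 93.9, 66.2, 102 and 80.4 CPM in the Alport mice (log2 fold change 2.10 ± 0.13, adjusted p = 9.3e-06), and *Tlr2*, a receptor for microbial lipoproteins, rose from 2.81 ± 0.890 to 25.8 ± 8.74 CPM. The non-canonical NF-κB subunit *Relb* and the inhibitor *Nfkbie*, itself an NF-κB target, rose by 2.40 ± 0.16 and 2.36 ± 0.19. *Nlrp3* and *Casp1* of the inflammasome rose by 2.12 ± 0.32 and 1.48 ± 0.22 on the log2 scale. The call of *Rel* (0.68 ± 0.22) depended on single mice, and was lost without Alport replicate 1, 3 or 4 or control replicate 1, 2 or 4 (adjusted p = 0.055–0.078).

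Interferon-stimulated genes rose in 24 of 26, 17 of them at least 2-fold, with a median of 1.28. The regulator *Irf7* was measured at 7.86, 9.11, 8.87 and 9.61 CPM in the control mice and 31.1, 24.5, 28.4 and 25.0 CPM in the Alport mice (log2 fold change 1.66 ± 0.10, adjusted p = 9.1e-06), and the RNA sensor genes *Oas1a*, *Oas2* and *Oasl2* rose by 2.06 ± 0.18, 2.27 ± 0.22 and 1.85 ± 0.13 on the log2 scale. *Isg15* and *Mx1* rose from 1.88 ± 0.306 to 5.29 ± 1.05 CPM and from 2.91 ± 0.710 to 8.36 ± 2.45 CPM. *Rsad2* was not called (log2 fold change 0.13 ± 0.14, adjusted p = 0.48).

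Promoters of the named genes were searched for short motifs of the factors of these programs in the RefSeq sequences of GRCm38.p6, from 250 bases before to 50 bases after the start, on both strands. Of 156 named genes, 104 had a promoter entry and 24 held at least 1 of the 30 motif windows kept, all before the start. Some promoters, and motifs close to the start, were left out of this count, so 24 may be too low. Shares over all promoters were taken for single motifs only, so the 24 of 104 genes have no share to stand beside. The table covered 76.4% of the tested genes, 74.3% of those that rose at least 2-fold and 74.0% of those that fell at least 2-fold, under the 80% needed, so a comparison of motif shares between these sets is void. The following 5 windows are from genes that rose and were chosen because each holds an NF-κB motif (GGGNNTTCC, in 5.72% of all 27025 promoters), an interferon response motif (TTTCNNTTT, 10.7%) or an HNF1 motif (GTTAATNAT, 0.836%), which is set in capitals and printed along the strand of the gene, so that a motif on the other strand reads as its reverse complement. A match is a description of the letters and not a measured site.
*Nfkbie*, NF-κB, chr17:45555575-45555623, plus strand: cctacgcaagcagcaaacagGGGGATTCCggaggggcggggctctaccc
*H2-D1*, NF-κB, chr17:35262903-35262951, plus strand: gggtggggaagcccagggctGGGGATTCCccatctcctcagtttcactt
*Birc3*, interferon response, chr9:7873356-7873404, minus strand: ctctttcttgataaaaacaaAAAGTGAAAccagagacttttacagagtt
*Ncf1*, interferon response, chr5:134229678-134229726, minus strand: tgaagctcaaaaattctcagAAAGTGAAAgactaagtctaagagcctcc
*Fga*, HNF1, chr3:83026087-83026135, plus strand: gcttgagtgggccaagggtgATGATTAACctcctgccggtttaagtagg

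The motif base nearest to the start lies 97, 163, 206, 73 and 38 bases before it, in that order. *Nfkbie* was measured at 4.60, 4.25, 6.05 and 3.32 CPM in the control mice and 24.9, 17.3, 27.5 and 22.0 CPM in the Alport mice. *Birc3*, which encodes an inhibitor of apoptosis, was measured at 13.6, 11.5, 13.4 and 12.7 CPM in the control mice and 59.4, 40.0, 47.2 and 44.3 CPM in the Alport mice (log2 fold change 1.94 ± 0.12, adjusted p = 8.7e-06). *Ncf1*, a subunit of the phagocyte oxidase, was measured at 3.74, 3.16, 5.69 and 3.60 CPM in the control mice and 16.8, 10.1, 12.5 and 15.2 CPM in the Alport mice. In all 5 genes the Alport mice lay above the control mice.

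**Figure D2:**
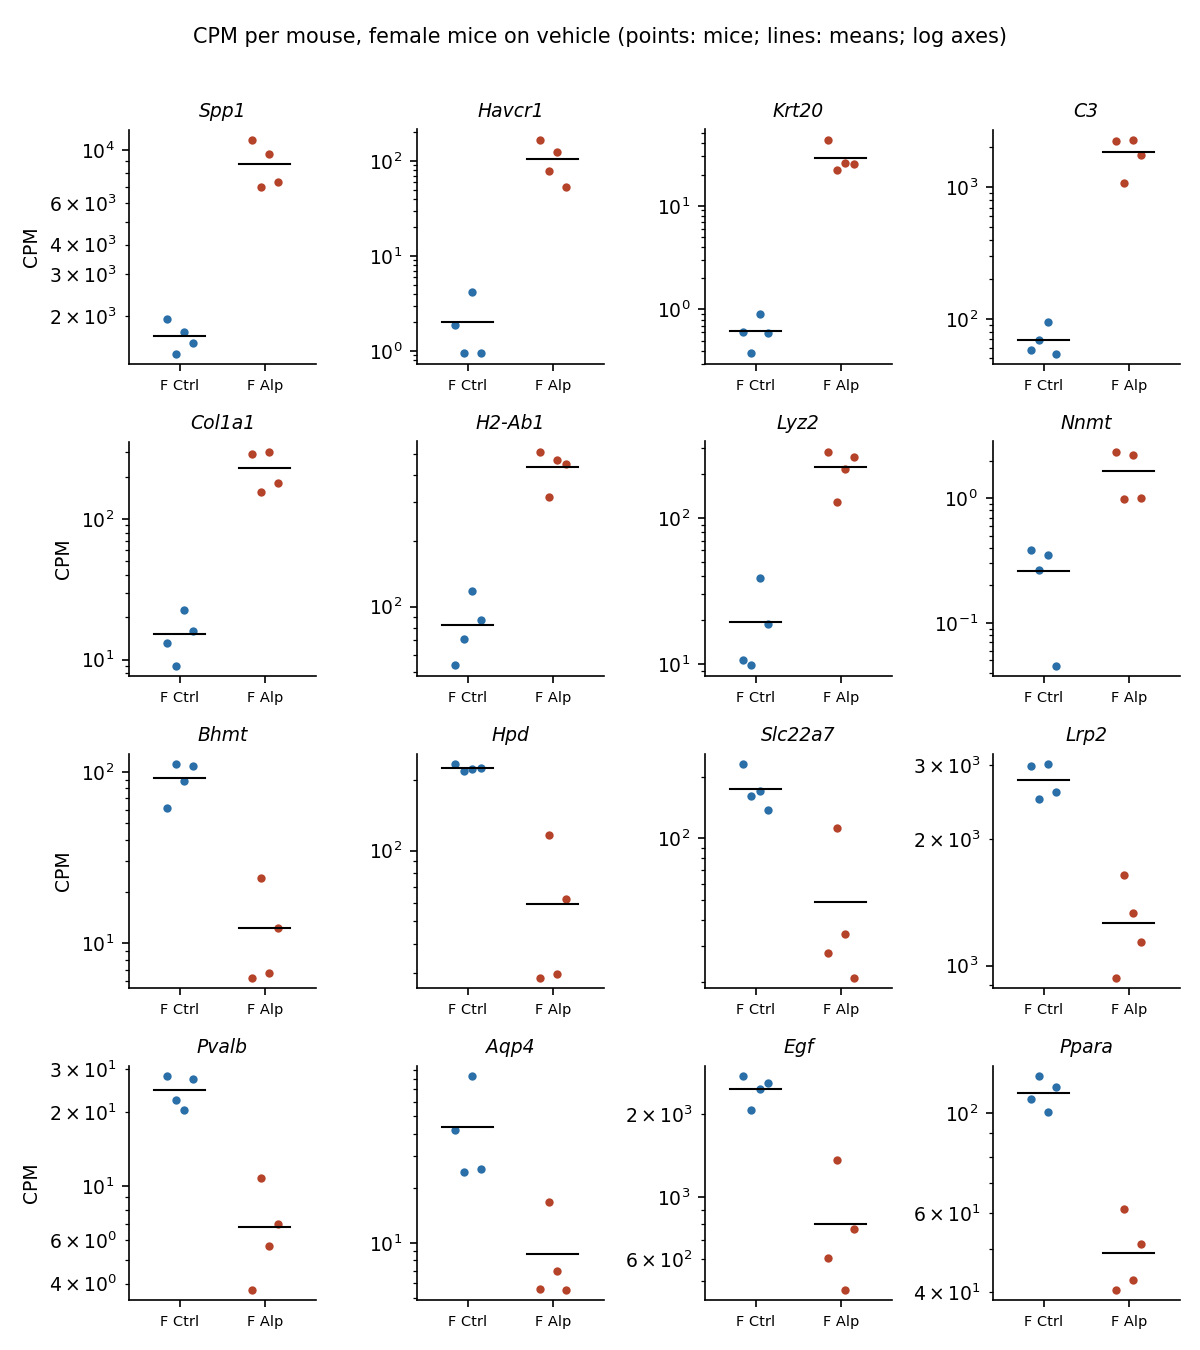
CPM on a log axis in each of the 4 control and 4 Alport female mice for 16 genes, with 1 point per mouse and the mean of each group as a line. The first 8 genes (*Spp1* to *Nnmt*) lie higher in every Alport mouse and the last 8 (*Bhmt* to *Ppara*) lower in every Alport mouse than in any control mouse.

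No marker of podocytes, the epithelial cells of the filter, fell. Of 22 podocyte markers, 15 rose, 3 of them at least 2-fold and the median was 0.46. *Nphs1*, encoding nephrin of the slit diaphragm, was measured at 62.7, 55.4, 58.9 and 61.9 CPM in the control mice and 70.4, 89.3, 70.4 and 85.5 CPM in the Alport mice (log2 fold change 0.44 ± 0.09, adjusted p = 0.0031), and the intermediate filament gene *Nes* rose by 1.52 ± 0.10. *Podxl* rose by 0.45 ± 0.09 on the log2 scale, and the transcription factor gene *Wt1* was not called (0.20 ± 0.12, adjusted p = 0.22). With library totals alone the podocyte median was 0.73, against 0.26 for all genes. Whether the podocyte rises follow from the fall of proximal tubule genes described below was not tested.

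Endothelial markers rose in 15 of 25, 2 of them at least 2-fold, with a median of 0.34. *Pecam1* was measured at 50.6, 51.2, 56.5 and 58.3 CPM in the control mice and 85.7, 73.3, 69.8 and 80.01 CPM in the Alport mice (log2 fold change 0.55 ± 0.08, adjusted p = 0.00044) and the cadherin *Cdh5* rose by 0.72 ± 0.07. The 2 genes past 2-fold, *Pdpn* (1.52 ± 0.10) and *Lyve1* (1.42 ± 0.35), mark lymphatic endothelium, and *Pdpn* is also a podocyte gene. *Prox1*, the defining lymphatic factor, was not called (−0.55, adjusted p = 0.058).

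**Figure D3:**
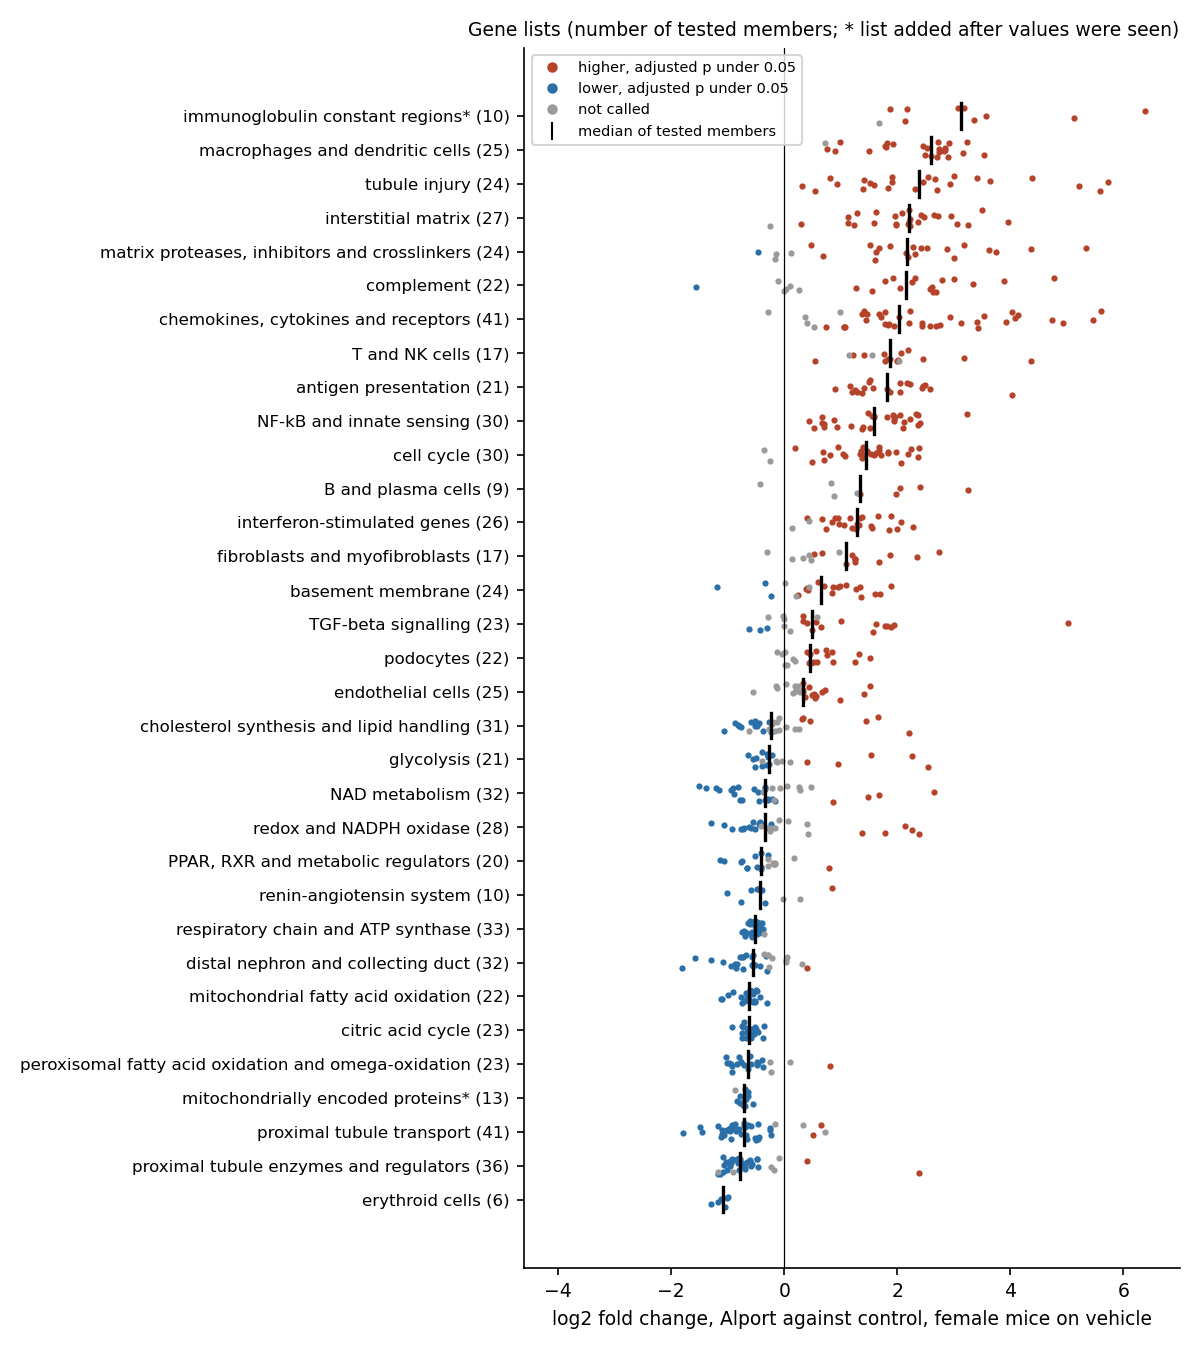
Log2 fold change of Alport over control in female mice for each tested member of the gene lists with at least 5 tested members, 1 point per gene, with the list median marked. Injury, matrix, immune, cell cycle, podocyte and endothelial lists have medians to the right of 0, up to 3.13, and transport and metabolic lists have medians to the left, down to −0.79, apart from the erythroid list at −1.08.

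Proximal tubule genes fell. Of 41 transport genes, 36 fell, 10 of them at least 2-fold, 2 rose and the median was −0.71. The summed level was 24814–27688 CPM in the control mice and 11410.2–17469 CPM in the Alport mice. *Slc22a7*, an organic anion transporter, was measured at 229.9, 160.1, 169 and 137 CPM in the control mice and 27.7, 112, 34.1 and 21.0 CPM in the Alport mice (log2 fold change −1.79 ± 0.46, adjusted p = 0.0085). Alport replicate 2 was much nearer to the controls than the other Alport mice. *Lrp2*, encoding megalin of protein reabsorption, was measured at 2989.9, 2486, 3012 and 2587 CPM in the control mice and 937, 1643, 1334 and 1138 CPM in the Alport mice (log2 fold change −1.09 ± 0.17, adjusted p = 0.00049), and its partner *Cubn* fell from 714 ± 77.8 to 330.0 ± 57.9 CPM. The neutral amino acid transporter *Slc6a19* fell from 429.8 ± 79.0 to 152 ± 45.2 CPM, the phosphate transporter *Slc34a1* from 5739 ± 558 to 3045 ± 559 CPM and the glucose transporter *Slc5a2* from 561 ± 92.4 to 301 ± 54.9 CPM. The members that rose were *Slco4c1* (0.50) and *Slc7a13* (0.66 ± 0.18), a transporter of the straight segment.

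Of 36 enzymes and regulators of the proximal tubule, 29 fell, 7 of them at least 2-fold, 2 rose and the median was −0.79. *Hnf4a*, a master regulator of this segment, was measured at 925, 955, 820.3 and 855 CPM in the control mice and 433, 596, 491 and 458 CPM in the Alport mice (log2 fold change −0.81 ± 0.11, adjusted p = 0.00027). *Pck1* of gluconeogenesis fell from 7502 ± 2109 to 3242 ± 986 CPM. In vitamin D and phosphate handling, the activating enzyme gene *Cyp27b1* rose from 7.93 ± 4.64 to 40.0 ± 22.0 CPM (log2 fold change 2.39 ± 0.45, adjusted p = 0.0016), while the receptor *Vdr* (−0.78 ± 0.14) and the anti-ageing co-receptor *Kl* (−1.13 ± 0.13) fell. The inactivating enzyme gene *Cyp24a1* ranged from 153 to 531 CPM in control and from 62.2 to 254 CPM in Alport mice and was not called (adjusted p = 0.15). *Kap*, an androgen-regulated gene, was not called (log2 fold change −1.16 ± 0.52, adjusted p = 0.093), and was called without Alport replicate 2 (adjusted p = 0.015) or control replicate 3 (adjusted p = 0.017).

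The 12 genes with the largest fall by the rule used for rises had smaller changes than those that rose. *Bhmt*, the betaine-homocysteine methyltransferase, was measured at 61.4, 111, 87.9 and 109 CPM in the control mice and 6.31, 24.0, 6.66 and 12.3 CPM in the Alport mice (log2 fold change −2.87 ± 0.39, adjusted p = 0.00027), 7.31-fold lower. *Dnase1*, a secreted nuclease, was measured at 748, 615, 848 and 528 CPM in the control mice and 58.7, 244, 54.9 and 111 CPM in the Alport mice (log2 fold change −2.51 ± 0.44, adjusted p = 0.001). *Hpd* of tyrosine breakdown was measured at 234, 219, 223 and 225 CPM in the control mice and 28.7, 116, 29.7 and 62.3 CPM in the Alport mice (log2 fold change −1.89 ± 0.38, adjusted p = 0.0025). For these genes, groups did not overlap and Alport replicate 2 was the highest Alport mouse. The cytochrome genes *Cyp2d12* and *Cyp2a5*, members of near-identical families, fell with log2 fold changes of −2.36 ± 0.45 and −2.33 ± 0.50. *Marc1*, *Lrit3*, *Wfdc16*, *Gm21969* and *9030619P08Rik* fell with log2 fold changes of −1.98 ± 0.34, −1.89 ± 0.32, −1.88 ± 0.23, −1.91 ± 0.40 and −1.93 ± 0.43, and the remaining members of the 12, *Aqp4* and *Pvalb*, belong to lists described below.

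The following 3 windows come from genes that fell and were chosen because they hold a motif of PPAR and RXR (AGGTCANAG, in 2.02% of all promoters) or HNF1, factors of the proximal tubule's metabolic program.
*Bhmt*, PPAR/RXR, chr13:93637802-93637850, minus strand: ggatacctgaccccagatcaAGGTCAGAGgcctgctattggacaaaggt
*Cat*, PPAR/RXR, chr2:103485329-103485377, minus strand: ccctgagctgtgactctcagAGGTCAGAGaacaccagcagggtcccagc
*Glyctk*, HNF1, chr9:106158170-106158218, minus strand: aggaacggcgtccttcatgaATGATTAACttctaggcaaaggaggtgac

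In these windows the motif base nearest to the start lies 64, 196 and 52 bases before it. *Cat*, the peroxisomal catalase, was measured at 908, 1018, 992 and 935 CPM in the control mice and 384, 631, 439 and 511 CPM in the Alport mice (log2 fold change −0.93 ± 0.14, adjusted p = 0.00049), and *Glyctk*, glycerate kinase, at 240.3, 219, 209.6 and 201 CPM in the control mice and 87.1, 136, 111 and 118 CPM in the Alport mice. Both had no overlap between the genotypes. The windows printed were chosen and do not show a match of motif and direction of change. The PPAR and RXR motif was also found before *Arhgap36*, which rose (log2 fold change 5.92). The interferon response motif was also found before *Slc26a4*, *Kmo*, *Pfkm* and *Alas2*, and the NF-κB motif before *Lrit3*, all of which fell.

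Distal nephron and collecting duct genes fell in 22 of 32, 4 of them at least 2-fold, 1 rose (*Cldn19*) and the median was −0.56. *Egf*, made by the loop of Henle and distal tubule, was measured at 2741, 2064, 2457 and 2581 CPM in the control mice and 602, 1365, 465 and 766 CPM in the Alport mice (log2 fold change −1.58 ± 0.29, adjusted p = 0.0013). *Pvalb*, a calcium-binding protein of the early distal tubule, was measured at 28.1, 22.4, 20.4 and 27.5 CPM in the control mice and 3.78, 10.8, 5.70 and 6.98 CPM in the Alport mice (log2 fold change −1.82 ± 0.26, adjusted p = 0.00034), and the thiazide-sensitive transporter *Slc12a3* fell from 2008 ± 171 to 1016 ± 183 CPM. Pendrin, *Slc26a4*, of intercalated cells fell (log2 fold change −1.08 ± 0.11). *Umod*, the uromodulin gene of the loop, was not called (3894, 3802, 3092 and 3321 CPM in the control mice and 3052, 5074, 3038 and 2931 CPM in the Alport mice, adjusted p = 0.88), and *Slc12a1* of the same segment was not called (log2 fold change −0.27 ± 0.18, adjusted p = 0.25), although it was called without Alport replicate 2 (−0.51, adjusted p = 0.0026).

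Of 10 tested genes of the renin-angiotensin system (13 listed), 7 fell, 1 rose and the median was −0.43. The precursor gene *Agt* was measured at 50.4, 56.4, 45.5 and 32.9 CPM in the control mice and 83.7, 89.3, 75.9 and 74.3 CPM in the Alport mice (log2 fold change 0.84 ± 0.14, adjusted p = 0.00071). Renin, *Ren1*, was measured at 246, 159, 82.4 and 219 CPM in the control mice and 66.1, 84.2, 67.7 and 121 CPM in the Alport mice (log2 fold change −1.02 ± 0.30, adjusted p = 0.019), with overlapping groups and a call that was lost without Alport replicate 1 or 3 or control replicate 1 or 4 (adjusted p = 0.053–0.058). The same holds for *Ace* (−0.76 ± 0.25), lost without Alport replicate 1, 3 or 4 or control replicate 1 or 3 (adjusted p = 0.066–0.084).

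All 22 genes of mitochondrial fatty acid oxidation fell, 2 of them at least 2-fold, with a median of −0.62 and a summed level of 5935–6575 CPM in the control mice and 3337–4521 CPM in the Alport mice. *Acadm*, the medium-chain dehydrogenase, was measured at 919, 740.0, 839 and 718 CPM in the control mice and 285, 538, 299 and 317 CPM in the Alport mice (log2 fold change −1.12 ± 0.20, adjusted p = 0.001). *Cpt1a*, which commits fatty acids to mitochondrial import, fell from 596 ± 71.6 to 366 ± 34.6 CPM, the carnitine transporter *Slc22a5* from 416 ± 46.2 to 204 ± 30.9 CPM and *Hadhb* of the trifunctional protein from 315 ± 5.56 to 189 ± 25.4 CPM. No value overlapped between the genotypes in any of the 22 genes, where 44.3% of all tested genes had no overlap. Peroxisomal and omega-oxidation genes fell in 19 of 23, with 1 higher and a median of −0.64. The bifunctional enzyme gene *Ehhadh* fell from 605 ± 112 to 329.9 ± 44.6 CPM and *Cyp4a14*, a classical PPARα target, from 681 ± 134 to 336 ± 118 CPM (log2 fold change −0.98 ± 0.24, adjusted p = 0.0063). The call of *Cyp4a14* was lost in joint fits of the 16 vehicle-treated (adjusted p = 0.12) and all 32 mice (adjusted p = 0.13). The member that rose, *Abcd2* (0.81 ± 0.24), lost its call without Alport replicate 1 (adjusted p = 0.0599).

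Of 20 PPAR, RXR and other metabolic regulators, 13 fell, 1 rose and the median was −0.41. *Ppara* was measured at 107, 121, 100.4 and 114 CPM in the control mice and 40.6, 61.4, 42.6 and 51.1 CPM in the Alport mice (log2 fold change −1.14 ± 0.13, adjusted p = 8.7e-05). Its coactivators *Ppargc1a*, encoding PGC-1α, and *Ppargc1b* and the mitochondrial regulator *Esrra* fell with log2 fold changes of −0.66 ± 0.13, −0.77 ± 0.11 and −0.75 ± 0.11. *Pparg*, the adipogenic paralog, rose from 1.13 ± 0.126 to 1.90 ± 0.297 CPM (log2 fold change 0.78 ± 0.21, adjusted p = 0.012), but was not called in joint fits of the 16 vehicle-treated (adjusted p = 0.057) or all 32 mice (adjusted p = 0.12).

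All 23 citric acid cycle genes fell, none of them 2-fold, with a median of −0.63. *Sdha*, of complex II, was measured at 1092, 1068, 1005 and 1052 CPM in the control mice and 504, 738, 573 and 635 CPM in the Alport mice (log2 fold change −0.74 ± 0.12, adjusted p = 0.00057), *Dlat* of pyruvate dehydrogenase fell from 199 ± 11.99 to 115 ± 15.8 CPM and citrate synthase, *Cs*, from 248 ± 9.09 to 189 ± 11.98 CPM. Nuclear-encoded genes of the respiratory chain and ATP synthase fell in 32 of 33, again none 2-fold, with a median of −0.51. *Ndufs1* of complex I was measured at 326, 305, 268 and 292 CPM in the control mice and 150.1, 209, 156 and 177 CPM in the Alport mice (log2 fold change −0.74 ± 0.11, adjusted p = 0.00042) and *Atp5b* fell from 2902 ± 163 to 1750.0 ± 255 CPM. *Cox5b* was not called (−0.35 ± 0.14, adjusted p = 0.067), and was called without Alport replicate 2 (adjusted p = 0.028) or 4 (adjusted p = 0.027). Mitochondrially encoded proteins, a group added after values had been seen, fell in 12 of 13, with a median of −0.71. *mt-Co1* was measured at 49640.0, 51515, 44753 and 45812 CPM in the control mice and 27295, 34373, 26127 and 31151 CPM in the Alport mice (log2 fold change −0.65 ± 0.17, adjusted p = 0.011). Of the 10 genes with the largest fall in mean CPM, 7 were mitochondrially encoded, and the others included *Pck1* and *Gpx3*, the secreted glutathione peroxidase made by the proximal tubule, which fell from 28404 ± 1798 to 17892 ± 3189.9 CPM (log2 fold change −0.63 ± 0.17, adjusted p = 0.013).

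Genes of NAD metabolism fell more often than they rose. Of 32 tested (33 listed), 20 fell, 4 rose and the median was −0.34. In synthesis from tryptophan, *Kynu* was measured at 74.7, 86.8, 83.4 and 72.3 CPM in the control mice and 20.6, 36.8, 23.8 and 28.0 CPM in the Alport mice (log2 fold change −1.50 ± 0.16, adjusted p = 6.8e-05) and *Kmo* fell from 176 ± 5.80 to 74.0 ± 18.3 CPM (log2 fold change −1.21 ± 0.15, adjusted p = 0.00016). In the salvage of nicotinamide, *Nampt*, the limiting enzyme, was measured at 243, 243, 242 and 229 CPM in the control mice and 106, 158, 107 and 128 CPM in the Alport mice (log2 fold change −0.90 ± 0.12, adjusted p = 0.00025). *Nmrk1*, the kinase that phosphorylates NR, fell less, from 86.5 ± 11.4 to 66.2 ± 4.79 CPM (log2 fold change −0.35 ± 0.09, adjusted p = 0.011). Among the genes that consume NAD or its precursors, *Parp14* rose from 16.8 ± 3.16 to 52.6 ± 7.78 CPM, the hydrolases *Bst1* and *Cd38* rose by 1.49 ± 0.19 and 0.86 ± 0.19, and *Nnmt*, which methylates nicotinamide, was measured at 0.387, 0.263, 0.353 and 0.0455 CPM in the control mice and 2.34, 0.981, 2.23 and 1.003 CPM in the Alport mice (log2 fold change 2.65 ± 0.49, adjusted p = 0.0014). The mitochondrial deacylase *Sirt3* fell from 99.4 ± 7.21 to 50.1 ± 10.5 CPM and the mitochondrial NAD kinase *Nadk2* from 109.7 ± 7.64 to 57.7 ± 10.2 CPM, and the transhydrogenase gene *Nnt* fell too (log2 fold change −0.75 ± 0.10).

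Glycolysis genes fell in 11 of 21 and rose in 5, with a median of −0.28. In this list and those of cholesterol and redox genes, the share that rose was at or below the 24% of all tested genes. The hexokinases *Hk2* and *Hk3*, the latter of myeloid cells, rose from 1.15 ± 0.642 to 5.36 ± 1.83 CPM and from 0.671 ± 0.228 to 3.83 ± 1.44 CPM, while *Pfkm* and *Gapdh* fell (log2 fold changes −0.65 ± 0.10 and −0.49 ± 0.11). Genes of cholesterol synthesis and lipid handling fell in 14 of 31 and rose in 6, with a median of −0.24 that turned positive with library totals alone (0.022). *Insig1*, a regulator of sterol synthesis, fell from 41.8 ± 6.69 to 19.5 ± 3.72 CPM, and the lipid exporters and carriers *Abca1*, *Abcg1* and *Pltp* rose by 1.45 ± 0.17, 1.67 ± 0.16 and 2.20 ± 0.18 on the log2 scale. Redox genes fell in 14 of 28 and rose in 5, with a median of −0.34. All 5 that rose encode parts of the phagocyte NADPH oxidase, such as *Cybb*, which was measured at 6.23, 6.06, 12.6 and 8.70 CPM in the control mice and 47.5, 27.5, 39.8 and 43.6 CPM in the Alport mice (log2 fold change 2.27 ± 0.24, adjusted p = 7.6e-05), whereas *Nox4*, the oxidase of tubule cells, was measured at 1135, 1010.4, 857 and 739 CPM in the control mice and 256, 459, 395 and 377 CPM in the Alport mice (log2 fold change −1.29 ± 0.18, adjusted p = 0.00032). The mitochondrial dismutase *Sod2* fell from 272 ± 17.8 to 157 ± 33.2 CPM, and *Hmox1* was not called (0.42 ± 0.22, adjusted p = 0.14), but was called without control replicate 3 (adjusted p = 0.0035).

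Few markers of fat, adrenal gland and urothelium passed the count filter. Of 9 adipocyte markers 3 were tested, of which *Pck1*, also a tubular gene, fell, *Fabp4* rose (0.83) and *Plin1* was not called, and the defining genes *Adipoq*, *Lep* and *Retn* were below the filter. Of 10 adrenal markers, *Star* and *Cyp11a1* were tested and neither was called (log2 fold changes −0.35 and 0.23). Of 10 markers of urothelium and inner medulla 4 were tested, of which *Akr1b3* rose (0.74 ± 0.08) and the water channel gene *Aqp4*, at 41.6, 24.5, 82.8 and 25.4 CPM in the control mice and 5.54, 16.7, 7.04 and 5.54 CPM in the Alport mice, fell (log2 fold change −2.29 ± 0.47, adjusted p = 0.0025). Erythroid markers fell in 6 of 6 tested of 7 listed, with a median of −1.08, but the groups overlapped for 5 of them. *Hbb-bs* was measured at 235, 215, 126 and 262 CPM in the control mice and 64.3, 163, 71.7 and 76.6 CPM in the Alport mice (adjusted p = 0.012), and only *Slc4a1*, which is also a gene of intercalated cells, was free of overlap. *Alas2*, *Hba-a1* and *Hbb-bt* each lost their call without control replicate 4 (adjusted p = 0.060, 0.062 and 0.051), and the first 2 also without Alport replicate 1, 3 or 4. The summed erythroid level was 383–724 CPM in the control mice and 169.6–459.8 CPM in the Alport mice, and its part in other results was not tested.

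The same comparison in male mice called 7789 of 15286 genes (51%), 4092 higher and 3697 lower in Alport mice. Of the genes called in both sexes, 3185 rose in both, 2720 fell in both and 21 changed in opposite directions. Male and female comparisons share no mice. List medians in females and males were 2.38 and 2.62 for tubule injury, 2.20 and 2.91 for interstitial matrix, 2.59 and 3.37 for macrophages, −0.71 and −0.76 for proximal tubule transport and −0.62 and −0.62 for mitochondrial fatty acid oxidation.

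Whether the change differed between the sexes was tested by the sex-genotype interaction in the 16 vehicle-treated mice. It was called for 46 of 16152 genes at an adjusted p under 0.05 and at least 2-fold (0.285%), 20 with a higher and 26 with a lower change in females. Without the fold limit 86 genes were called (0.532%). The count depended on the fit, with 115 genes for DESeq2, 28 for limma-voom, 30 with library totals alone and 4 when all 32 mice were fitted together. It also depended on the mice and was 16 without female Alport replicate 4, 19 without female control replicate 3 or 4 or male Alport replicate 1, 21 and 25 without male control replicate 2 and 1, 24 without male Alport replicate 3, 27 without male control replicate 4, 29 without male Alport replicate 2 and 30 without female Alport replicate 1.

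*Ugt2b37*, a member of a multigene family of glucuronidating enzymes, had the smallest interaction p. In females it was measured at 1.59, 3.27, 1.53 and 2.82 CPM in the control mice and 21.3, 15.3, 22.9 and 16.6 CPM in the Alport mice (log2 fold change 3.08 ± 0.24, adjusted p = 2.0e-05). Male controls had 307, 241, 239.8 and 307 CPM and male Alport mice 149.8, 183, 96.5 and 252 CPM (log2 fold change −0.61 ± 0.23, adjusted p = 0.041), and the interaction was 3.65 ± 0.37, adjusted p = 0.00014. Every female mouse of either genotype lay below every male mouse. *Slc7a13* rose in females from 3.20 ± 0.354 to 4.93 ± 0.997 CPM and fell in males from 1029.7 ± 198 to 260.0 ± 60.2 CPM (interaction 2.53 ± 0.27, adjusted p = 0.00018), and so did *Srd5a1*, a reductase that makes dihydrotestosterone (females from 13.4 ± 3.23 to 21.4 ± 2.64 CPM, males from 37.8 ± 3.54 to 24.2 ± 3.09 CPM), and *Cyp2j13* (females from 2.23 ± 0.514 to 11.3 ± 4.15 CPM, males from 427 ± 115 to 205 ± 90.8 CPM). *Frzb*, a secreted Wnt antagonist, rose from 2.08 ± 0.509 to 13.3 ± 4.35 CPM in females and from 17.5 ± 1.07 to 25.1 ± 4.05 CPM in males. *Agps*, of ether lipid synthesis, was not called in females (log2 fold change 0.01 ± 0.11, adjusted p = 0.94) and fell from 375 ± 64.2 to 136 ± 34.2 CPM in males. *Gm15280* and *Timd2*, a receptor for ferritin, had interactions of 1.47 and 1.42 (adjusted p = 0.012 and 0.013).

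In the other direction, *Abcc3*, an exporter of conjugated organic anions, was measured in females at 77.8, 45.6, 47.6 and 31.5 CPM in the control mice and 31.3, 40.6, 32.6 and 25.5 CPM in the Alport mice (log2 fold change −0.60 ± 0.23, adjusted p = 0.057). Male controls had 1.64, 0.985, 1.97 and 2.24 CPM and male Alport mice 11.2, 10.5, 15.5 and 9.28 CPM, and the interaction was −3.49 ± 0.38, adjusted p = 0.00021. The female change of *Abcc3* was called without Alport replicate 2 (adjusted p = 0.028) or control replicate 4 (adjusted p = 0.013). *Clic6*, an intracellular chloride channel gene, was not called in females (from 6.29 ± 1.11 to 4.86 ± 1.65 CPM) and rose from 0.159 ± 0.0857 to 2.31 ± 1.63 CPM in males (interaction −4.30 ± 0.66, adjusted p = 0.0077). Without Alport replicate 4, the highest Alport mouse for *Clic6*, it was called lower in females (−0.60, adjusted p = 0.019). *Fgb* rose in both sexes, from 3.99 ± 0.394 to 22.8 ± 3.66 CPM in females and from 1.04 ± 0.430 to 18.0 ± 3.03 CPM in males (interaction −1.67 ± 0.27, adjusted p = 0.013), as did the membrane repair gene *Myof* and the actin-capping gene *Capg*, with interactions of −1.43 and −1.77 (adjusted p = 0.016 and 0.019). *Gbp3*, *Steap3* and the secreted phospholipase *Pla2g5* were not called in females and rose in males, with interactions of −1.55, −1.22 and −1.25 (adjusted p = 0.007, 0.007 and 0.019). The female value of *Gbp3* was near the threshold (log2 fold change 0.43 ± 0.16, adjusted p = 0.051). It was called higher with DESeq2 (adjusted p = 0.036), with limma-voom (adjusted p = 0.028), in the joint fit of 16 mice (adjusted p = 0.043), without control replicate 1 (0.64, adjusted p = 0.0014) and without Alport replicate 4 (adjusted p = 0.044). *Steap3* was called higher in females without control replicate 1 (0.39, adjusted p = 0.033).

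Of 782 list members tested for the interaction, 13 passed at an adjusted p under 0.05 (1.66%), against 0.532% of all genes. The lists were chosen with earlier results of these data known, so this difference in shares is not a test. On the log2 scale *Spp1* rose less in females (2.45 ± 0.18 against 3.46 ± 0.14 in males, interaction −1.05 ± 0.21, adjusted p = 0.036), as did *Col1a2* (2.96 ± 0.19 against 4.07 ± 0.16, interaction −1.14 ± 0.25, adjusted p = 0.049), *Nphs1* (0.44 ± 0.09 against 1.24 ± 0.14, interaction −0.83 ± 0.18, adjusted p = 0.049) and *Nes* (1.52 ± 0.10 against 2.26 ± 0.13, interaction −0.77 ± 0.16, adjusted p = 0.047). The *Spp1* level itself was higher in female than in male Alport mice (7002–11019 against 5640–6678 CPM). Female controls were also higher than male controls (1393–1938.5 against 513–652 CPM). *Akr1b3*, the aldose reductase, rose more in females (0.74 ± 0.08 against 0.12 ± 0.08, interaction 0.59 ± 0.11, adjusted p = 0.024). *C3* and *Timp1* had larger changes in males (5.86 ± 0.12 and 7.08 ± 0.31), but the difference was not called (adjusted p = 0.085 and 0.29). The interactions of *Nphs1*, *Nes* and *Akr1b3* were under the 2-fold limit. Whether single genes keep an interaction call in other fits or without single mice was not examined.

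**Figure D4:**
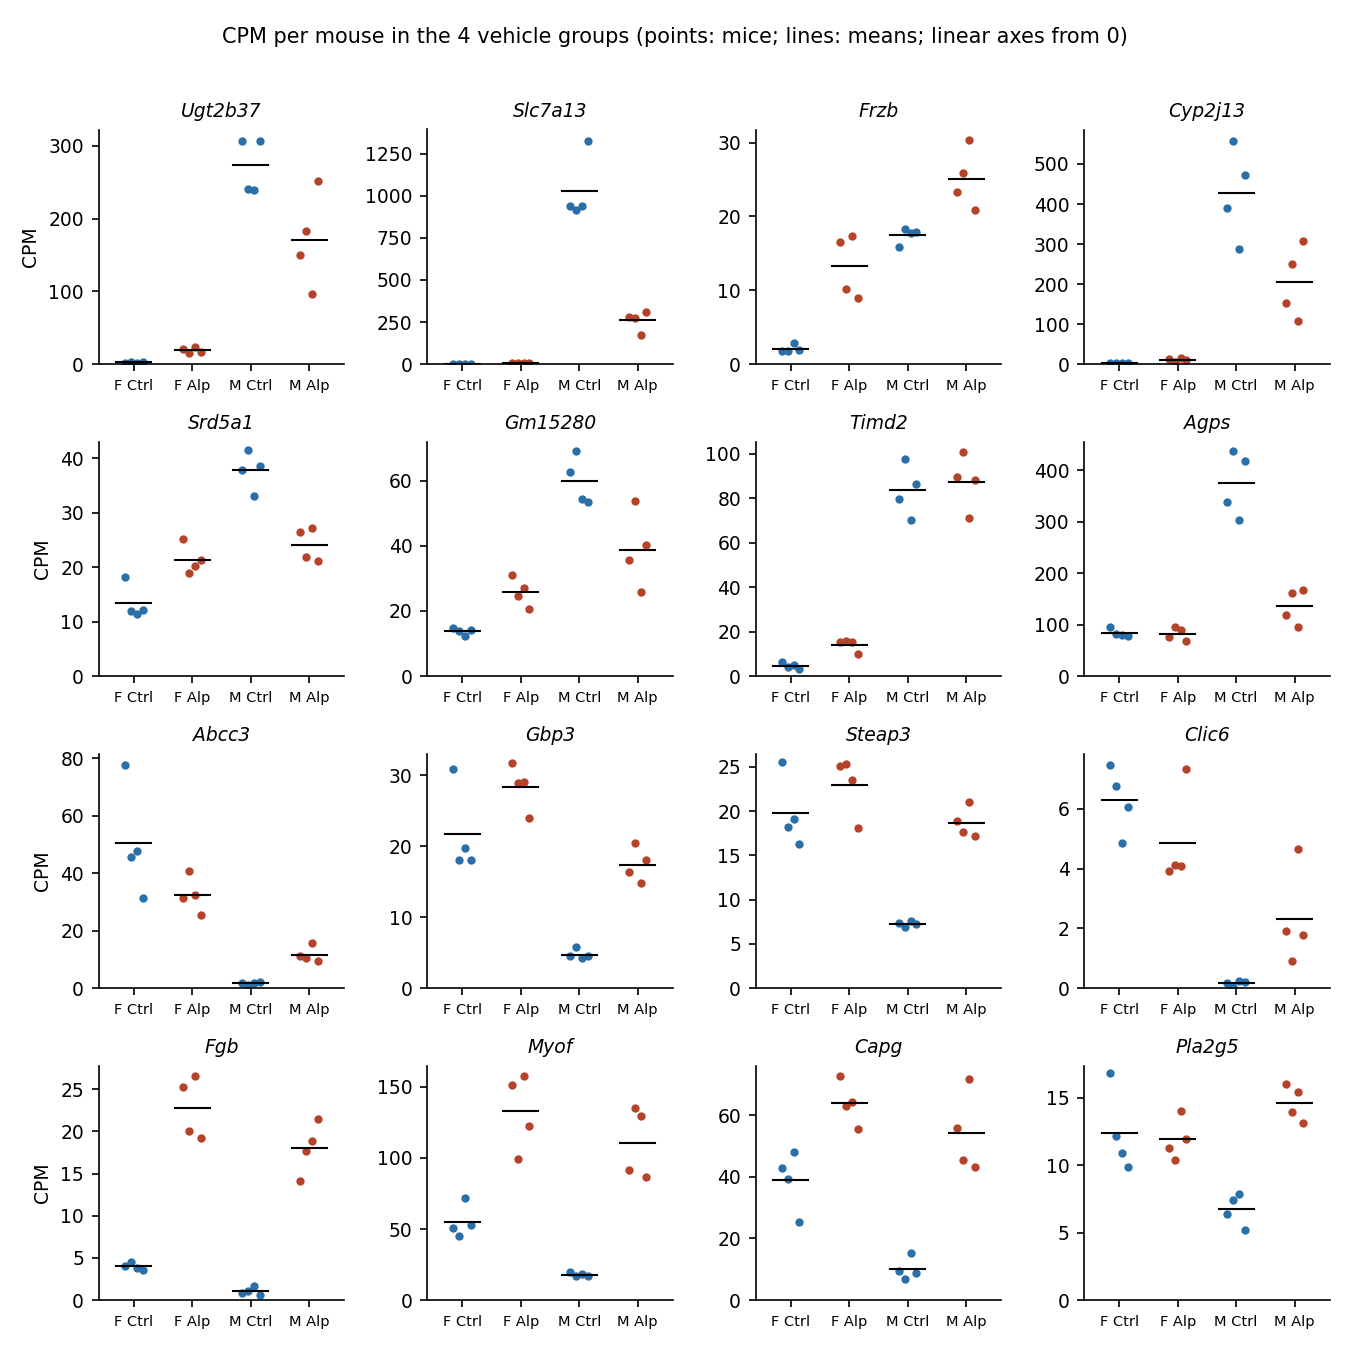
CPM on a linear axis from 0 in the 4 female control, 4 female Alport, 4 male control and 4 male Alport mice on vehicle for the 8 called genes with the smallest interaction p in each direction, 1 point per mouse with the mean of each group as a line. For *Ugt2b37*, *Slc7a13* and *Cyp2j13* the male controls are high and the female controls low, and for *Abcc3* and *Clic6* the female controls are high and the male controls low.

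The interaction is by its construction also the test of whether the gap between the sexes differed by genotype. For all 46 genes the gap between the female and male mean was smaller in Alport than in control mice, with a median absolute log2 gap of 2.09 in control and 0.60 in Alport mice. All 20 genes with a higher change in females were higher in male than in female controls, and all 26 with a lower change were higher in female controls. A gap of at least 2-fold was present for 43 of the 46 genes in control and 15 in Alport mice. Over all 16152 genes the gap was smaller in Alport mice for 11074 genes, with medians of 0.241 and 0.149, and was at least 2-fold for 814 genes in control and 347 in Alport mice.

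Finally, 3 genes had reads in all vehicle-treated female Alport mice and were at or near 0 in vehicle-treated female controls and males, and were singled out after their values were seen. *Actbl2*, an actin paralog on chromosome 13 (111255013–111257749), had 77, 83, 66 and 45 reads in Alport mice and 0 in each control mouse, at least 80.1-fold higher than the floor of 3 reads over the control group. Reads of other actins could be assigned to it. *Gm11517*, a transcribed pseudogene on chromosome 11 (96795332–96798156), had 89, 74, 77 and 78 reads in Alport and 2, 2, 2 and 0 in control mice (log2 fold change 5.50 ± 0.38, adjusted p = 1.3e-05). *Gm4760*, a pseudogene on chromosome X (143183365–143184608), had 19, 19, 19 and 15 reads in Alport mice and 0 in each control mouse, at least 21.3-fold. In NR-treated females, which are in no comparison here, Alport mice had 80, 61, 60 and 277 *Actbl2* reads and control mice 0, 0, 0 and 73. The same control mouse, replicate 4, held 98 *Gm11517* reads, against 3, 1 and 1 in the others, and 25 *Gm4760* reads. That library carries a control label but held all 3 genes at the level of female Alport mice. Whether its label is right was not tested. Its *Col4a3* level was 122 CPM, against 105–123 CPM in the other NR-treated female controls and 49.0–58.9 CPM in NR-treated female Alport mice. The NR-treated female controls, this mouse included, had 0.946–1.73 CPM of *Krt20* and 0.514–1.33 CPM of *Timp1*. NR-treated female Alport mice had 5.80–19.4 and 1.97–23.6 CPM. For *Havcr1* these groups overlapped (2.08–6.02 CPM in the controls and 3.94–114 CPM in the Alport mice). In males no mouse had more than 1 *Actbl2* read. The interaction could not be estimated for *Actbl2* and *Gm4760*, since all males on vehicle were at 0, and for *Gm11517* its adjusted p was 0.084.

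**Figure D5:**
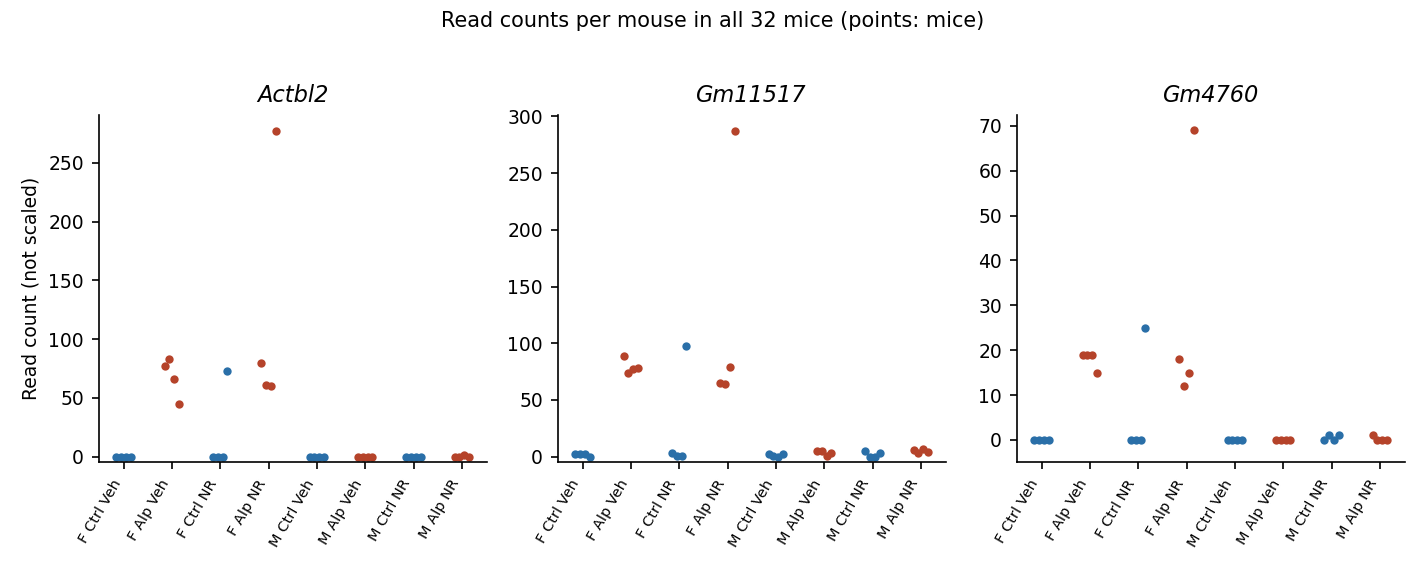
Read counts of *Actbl2*, *Gm11517* and *Gm4760* in all 32 mice by group of sex, genotype and treatment, 1 point per mouse. Counts are high in all 8 female Alport mice and in replicate 4 of the NR-treated female controls, and at or near 0 elsewhere.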

How the data were processed

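Kidney cortex poly(A) RNA of 32 mice in 8 groups of 4 was sequenced. The deposited table used here holds the authors' raw counts per gene for 32544 genes, made with BioJupies, and the submitters' processing notes name mm10. The aligner version, annotation and strand setting are not given in the sources used here. A second deposited table, of log10 CPM made by the authors, was not tested. All columns carried a mouse's title.

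Groups were taken from the labels. Genes with enough counts (filterByExpr of edgeR 4.0.16, min.count 10) were compared with edgeR's quasi-likelihood F test in R 4.3.3 after TMM scaling, with Benjamini-Hochberg adjustment over all genes tested, first in the 8 female vehicle mice, then in the 8 males and, for the sex-genotype interaction, in all 16. CPM used the full library total and TMM factors over 32 mice. The scripts were tested on simulated counts. Alternatives were DESeq2 1.42.0, limma-voom (limma 3.58.1), RLE scaling, library totals alone, other count filters, a replicate block, joint fits and leaving out each mouse. A fold against a group at 0 used a floor of 3 reads over the group, and counting intervals are 95% Poisson intervals of counting error only.

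The 35 gene lists (828 genes), the promoter motifs and the genes named were chosen with earlier results of these data known, so their counts are descriptions. Named were *Col4a3*, the 12 largest fold changes in each direction among called genes with at least 1 CPM and no overlap, the 10 largest rises and falls of mean CPM, list members, and the 8 smallest interaction p-values in each direction. A few genes named by this rule are not reported here. Nothing in the labels says more than that each library is a separate mouse of the group. Within a group, every pair of libraries differed by more than sampling noise (chi-square per degree of freedom 11.7–47.4).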

Additional observations from a re-analysis of the deposited data

Results flagged for a closer look

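Of 200 sets of 4 values tested for a sample far from the rest, 14 were flagged (7%). Alport replicate 2 accounted for 3 of them and control replicate 3 for more. Chance alone flags about 1 in 20 of independent, normally distributed sets. The sets here share the same mice and some hold counts at or near 0, so the 2 shares cannot be compared. In Alport replicate 2 *Col4a3* was at 79.3 CPM, *Aqp4* at 16.7 CPM and *9030619P08Rik* at 21.1 CPM, each the highest of the Alport mice. Alport replicate 4 stood apart for *Timd2* (10.1 CPM) and *Clic6* (7.32 CPM). Control replicate 3 stood apart for *Arhgap36* (0.118 CPM), *Timp1* (0.982 CPM), *Fcrls* (0.785 CPM), *Cyp2d12* (101 CPM) and the summed NAD metabolism list (1873 CPM). Control replicate 1 stood apart for *Il1f6* (0.301 CPM), *Srd5a1* (18.2 CPM) and *Gbp3* (30.8 CPM), and control replicate 4 for *Gm11517* (0 CPM).

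The change from control to Alport differed between the sexes, by the interaction test, for 26 of the named or listed genes. Many of these genes had been named for their small p in this same test, so that choice fixed part of the count. The count of 26 therefore cannot be compared with the 86 of all 16152 genes (0.532%) called without a fold limit. The female minus male difference in log2 fold change was positive for *Ugt2b37* (3.65), *Cyp2j13* (3.32), *Slc7a13* (2.53), *Frzb* (2.07), *Gm15280* (1.47), *Timd2* (1.42), *Agps* (1.36), *Srd5a1* (1.25), *Cyp2e1* (1.20) and *Akr1b3* (0.59). It was negative for *Clic6* (−4.30), *Abcc3* (−3.49), *Capg* (−1.77), *Fgb* (−1.67), *Gbp3* (−1.55), *Myof* (−1.43), *Pla2g5* (−1.25), *Steap3* (−1.22), *Col1a2* (−1.14), *Spp1* (−1.05), *Col5a2* (−1.01), *Nphs1* (−0.83), *Nes* (−0.77), *Pfkp* (−0.63), *Lamc1* (−0.53) and *Tnfrsf1a* (−0.44).

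In mice outside the comparisons, replicate 4 of the NR-treated female controls had 73 reads of *Actbl2* and 98 of *Gm11517*, against 0 and at most 2 in each vehicle-treated female control.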

How the results depend on the processing

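The number of genes called in females ranged from 6017 (all 32 mice in one fit) to 8425 (library totals alone), and from 6049 to 7652 when a mouse was left out. The number changed at least 2-fold ranged from 1826 to 2407 without single mice, and the number called in males from 6872 to 7965. The interaction count was less stable. It was 86 without a fold limit, 115 with DESeq2, 28 with limma-voom, 30 with library totals alone and 4 with all 32 mice, and 16 to 59 without single mice. With library totals alone, 86.3% of male calls were higher in Alport mice, and the shares of interaction genes with a higher change in females were 31.4% (no fold limit), 35.7% (DESeq2), 50% (limma-voom) and 58.3% (RLE), against 43.5%.

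Replicate numbers were not taken to pair the mice, since the labels give no shared origin and not every pair correlated. Deviations from group means of same-numbered control and Alport mice correlated at −0.003, 0.193, 0.204 and 0.113, and 2 of 4 numbers correlated best with their own. With a replicate block 7142 genes were called in females, 2068 at least 2-fold, 7699 in males and 51 in the interaction. Genes described as not called that were called in females with the block were *Gbp3* (adjusted p = 0.0092), *Lama1* (0.022), *Abcc3* (0.029), *Kap* (0.033), *Col5a2* (0.033), *Cox5b* (0.037) and *Hmox1* (0.039).

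The sign of some values in the female comparison changed, and of these genes *Col4a4* was called. With library totals alone these were *Pla2g5* (0.25), *Col4a4* (0.022), *Col5a2* (0.027) and the median of the cholesterol list (0.022). *Pla2g5* was 0.00057 with at least 10 counts in every mouse and −0.117 to 0.150 without single mice. *Agps* was −0.028 with 32 and −0.026 with 16 mice and −0.0809 to 0.0867 without single mice, *Umod* −0.00098 with 32 mice and −0.205 to 0.116 without single mice, and *Upk1a* −0.279 to 0.411. Of the other values of named genes, 2559 kept their direction and side of the threshold under other settings and 2309 without single mice, 30 and 33 lost and 42 and 22 gained a call. The calls of *Cyp51* and *Il1b* were among those lost without single mice. In the fit of all 32 mice the calls of *Acta2*, *Apoe*, *Capg*, *Lyve1*, *Slc7a13*, *Abcd2*, *Ace* and the erythroid genes *Alas2*, *Hba-a1*, *Hbb-bs* and *Hbb-bt* were lost too (adjusted p = 0.052–0.39), with library totals alone those of *Ace*, *Cs* and *Nmrk1* (0.074, 0.24 and 0.44) and with limma-voom that of *Ighm* (0.065). Of the list medians, 24 moved under other settings and none without single mice. The causes were not tested. Depth limits genes under the count filter, and 9801 genes had no read in any of the 8 mice.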
